A study of Mus musculus with 28 samples.

Results

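The 3 Gadd45 genes and 7 genes of p53-dependent growth arrest were followed in archival mouse livers after phenobarbital. The members were Gadd45a, Gadd45b, Gadd45g, Cdkn1a, Mdm2, Trp53, Btg2, Ccng1, Bax and Phlda3 and were found on the arrays through the RefSeq accession of each probe. All 10 had a probe, 11 probes in all of the 55681 on the array, because Cdkn1a had 2. They were 10 of the 20660 genes with a symbol.

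Livers came from male B6C3F1 mice, labelled with an age of 42 days, and were stored as formalin-fixed tissue in paraffin (FFPE) blocks for 16 years. The exposed mice (PB1, PB2 and PB3) had 0.05% phenobarbital in their drinking water for about 4 weeks, and the control mice (C1, C2 and C3) drank water alone. Nothing in the labels names a pool of mice, and p-values below measure the spread between these mice. In the two-colour 1X set they do so only as far as the mouse numbers hold. Phenobarbital, a barbiturate sedative, switches on CAR (the constitutive androstane receptor), a nuclear receptor of hepatocytes. The RNA of the same 6 mice was hybridised in 4 sets, each on 1 slide: 6 one-colour arrays for each of 2 amounts of cDNA, 1X and 1.5X, and 8 two-colour arrays for each amount. The mouse was the replicate (n = 3 per group), and the 4 sets are repeated measurements of 1 group of mice, not independent experiments. Within a format, input, slide and scan session cannot be told apart.

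p53, encoded by Trp53, is a transcription factor that is stabilised by DNA damage and other stresses and drives genes that stop the cell cycle, repair DNA or start apoptosis. The Gadd45 genes encode small acidic proteins that bind cell cycle and DNA repair proteins and activate a kinase upstream of p38 and JNK. Gadd45a is a direct p53 target, whereas Gadd45b is better known as an early response gene of cytokine and growth signals, and in mouse liver as a gene raised by activators of CAR.

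Of the members tested, Gadd45b had the largest increase in phenobarbital-exposed livers. Over both one-colour inputs (the mean of the 1X and 1.5X values of a mouse) it was 5.03-fold higher than in control livers, and all 3 exposed mice lay above all 3 control mice in both one-colour sets and in the two-colour 1X set. The mean of Phlda3 was 1.90 times that in control livers over both inputs, also with no overlap, but it did not pass the test across all genes. Gadd45g had a lower mean that did not pass the test over both inputs, with a wide spread between mice. The p53 gene itself, its inhibitor Mdm2, Gadd45a and the targets Cdkn1a, Btg2 and Bax did not pass the test in any set in which they were tested, and Ccng1 was never well above background.

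The proximal promoters of Gadd45b and Gadd45g are shown because these paralogues had mean differences of opposite sign. The windows and the motifs were chosen after the letters and the values had been read, so the matches are a description and support nothing. Each window is 300 bases, from 250 before to 50 after the RefSeq start site in build GRCm38.p6, on the plus strand and written 5′ to 3′. The Gadd45b window is chr10:80929841-80930140 and the Gadd45g window is chr13:51846425-51846724. Capitals mark the E-box CACGTG, the CCAAT box and the TATA box TATAAA, each searched on both strands.
Gadd45b: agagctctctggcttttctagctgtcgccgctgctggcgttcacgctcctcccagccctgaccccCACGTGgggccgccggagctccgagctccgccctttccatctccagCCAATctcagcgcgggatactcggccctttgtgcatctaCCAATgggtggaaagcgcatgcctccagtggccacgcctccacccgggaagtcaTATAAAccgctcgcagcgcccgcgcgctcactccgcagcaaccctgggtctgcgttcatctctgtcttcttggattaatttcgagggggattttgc
Gadd45g: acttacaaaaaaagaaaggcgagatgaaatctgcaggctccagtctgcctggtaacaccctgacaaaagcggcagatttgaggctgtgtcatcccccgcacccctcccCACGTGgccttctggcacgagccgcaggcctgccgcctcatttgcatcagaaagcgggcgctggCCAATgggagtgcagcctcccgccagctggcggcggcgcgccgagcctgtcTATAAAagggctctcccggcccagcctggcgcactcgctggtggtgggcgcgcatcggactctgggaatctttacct
Both windows held all 3 motifs, as did the Trp53 window, which is not shown. No motif marked here overlapped another. The Gadd45b window also held the GC box GGGCGG, which is not marked and which 35.7% of all windows held. Of all 32851 RefSeq windows of this length, 7.15% held the E-box, 37.4% the CCAAT box and 13.6% the TATA box.

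Albumin (Alb) and transthyretin (Ttr), secreted by hepatocytes, were well above background on all 12 one-colour arrays, as were all 8 hepatocyte markers. Cyp2b10, the drug-metabolising enzyme raised by CAR activation, was well above background in every exposed mouse and in no control mouse. With control values raised to the lowest level called so, it was at least 29.9-fold higher in exposed livers at 1X and at least 18.0-fold higher at 1.5X. The test on the measured values, which the gene entered through the exposed group, gave a limma adjusted p of 0.000685 at 1X and 0.00084 at 1.5X. One-colour arrays read 44.2% to 51.9% of probes well above background at 1X and 28.1% to 38.5% at 1.5X. On the two-colour 1.5X arrays the share was 34.4% to 42.8% in Cy3 and 2.98% to 7.42% in Cy5. No member was well above background in Cy5 on any array of that set, so the test on the mean of both dyes included no member. Values below are log2 processed signal over the 75th percentile of the array (one-colour) or normalised log2 signal (two-colour), and levels of different probes are not compared because each probe binds with its own strength.

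In the one-colour 1X set Gadd45b stood at -0.75, -0.34 and -0.03 in PB1, PB2 and PB3, against -1.87, -2.49 and -2.13 in C1, C2 and C3. The lowest exposed mouse was more than 1 log2 unit above the highest control mouse. In the one-colour 1.5X set the values were -1.60, -0.85 and -0.90 in exposed mice and -4.37, -4.20 and -3.40 in control mice. Again every exposed mouse lay above every control mouse. All 12 arrays read the probe well above background, and the lowest level called so on the control arrays at 1.5X was -4.68, -4.51 and -4.34 in C1, C2 and C3. Before scaling, the processed signal at 1X was 337, 408 and 418 in exposed mice, against 163, 90.7 and 174 in control mice.

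The fold change of Gadd45b over both inputs was 2.33 on the log2 scale (SE 0.24, 95% confidence interval 1.77 to 2.89, limma adjusted p = 0.00928). It averaged -0.74 ± 0.38 in exposed mice and -3.08 ± 0.29 in control mice (SD, n = 3 each). At 1.5X alone it was 2.87 (SE 0.32, limma adjusted p = 0.0286) and at 1X alone 1.79 (SE 0.26, limma adjusted p = 0.0691), which did not pass the threshold of 0.05. The effect at 1.5X exceeded that at 1X by 1.08 (95% confidence interval 0.34 to 1.83, limma unadjusted p = 0.0102), and this difference did not pass the test across all genes (limma, adjusted p = 0.764). In that limma comparison 0% of 12796 genes passed, with 724 at an unadjusted p under 0.05, and 0 of 8 members passed. The call over both inputs was lost when PB2, PB3 or C1 was left out, with adjusted p between 0.0557 and 0.0621 and a fold change between 2.19 and 2.31. At 1.5X it was lost without PB2, PB3, C1 or C2, with adjusted p between 0.0911 and 0.112, and also without the filter on dim probes (limma, adjusted p = 0.0862).

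In the two-colour 1X set each mouse was read once in each dye, on 6 arrays, and the mice are numbered by the array descriptions unless the source names are given. Gadd45b had Cy3 values of 7.31, 7.83 and 7.61 in PB1 to PB3, against 6.09, 6.39 and 6.76 in C1 to C3. Its Cy5 values were 7.25, 7.33 and 7.46 in exposed mice, against 6.62, 6.51 and 6.39 in control mice. Exposed mice lay above control mice in both dyes. The probe was well above background in 3 of 3 exposed channels of each dye, and in 1 of 3 control channels in Cy3 and 0 of 3 in Cy5. The fold change on the mean of both dyes was 1.00 (SE 0.10, limma adjusted p = 0.00175), a fold of measured signals in which most control channels were not well above background, and the gene entered this test through the exposed group. With the processed Cy3 signal alone it was 2.53 (limma, adjusted p = 0.0905), which did not pass. The effect here minus that in the one-colour 1X set was -0.78 (95% confidence interval -1.31 to -0.26, limma unadjusted p = 0.00817). This difference did not pass the test across all genes (limma, adjusted p = 0.993) and holds the same dim control channels. In that comparison 0.0242% of 8248 genes passed and 0 of 4 members. The scales differ, because the two-colour values had a background correction with an offset (normexp) and the one-colour values did not. With the processed Cy3 signal alone the effect, 2.53, lay above the one-colour 1X effect of 1.79, so the sign of the difference depended on the processing. The difference therefore cannot show whether the two-colour format measured a smaller effect. The hepatocyte genes Alb, at -0.39 (limma, adjusted p = 0.0213), and Ttr, at -0.62 (limma, adjusted p = 0.00786), were also lower in exposed livers in the two-colour 1X set, though not past the threshold by the source names (limma, adjusted p = 0.137 for Alb and 0.111 for Ttr), and their part in the members' values was not tested.

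At 1.5X, the two-colour Cy3 channel read Gadd45b at 7.14, 7.17 and 7.41 in exposed mice, against 6.74, 6.89 and 6.61 in control mice. The groups did not overlap in this channel, and the fold change in Cy3 alone was 0.50 (SE 0.11, limma adjusted p = 0.270). In Cy5, where it was not well above background on any array, exposed mice stood at 6.93, 7.01 and 7.30 and control mice at 6.89, 7.06 and 7.08, which overlap. Of 15569 genes tested in Cy3 alone, 0.0963% passed, and none of the 9 members tested did.

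**Figure D1:**
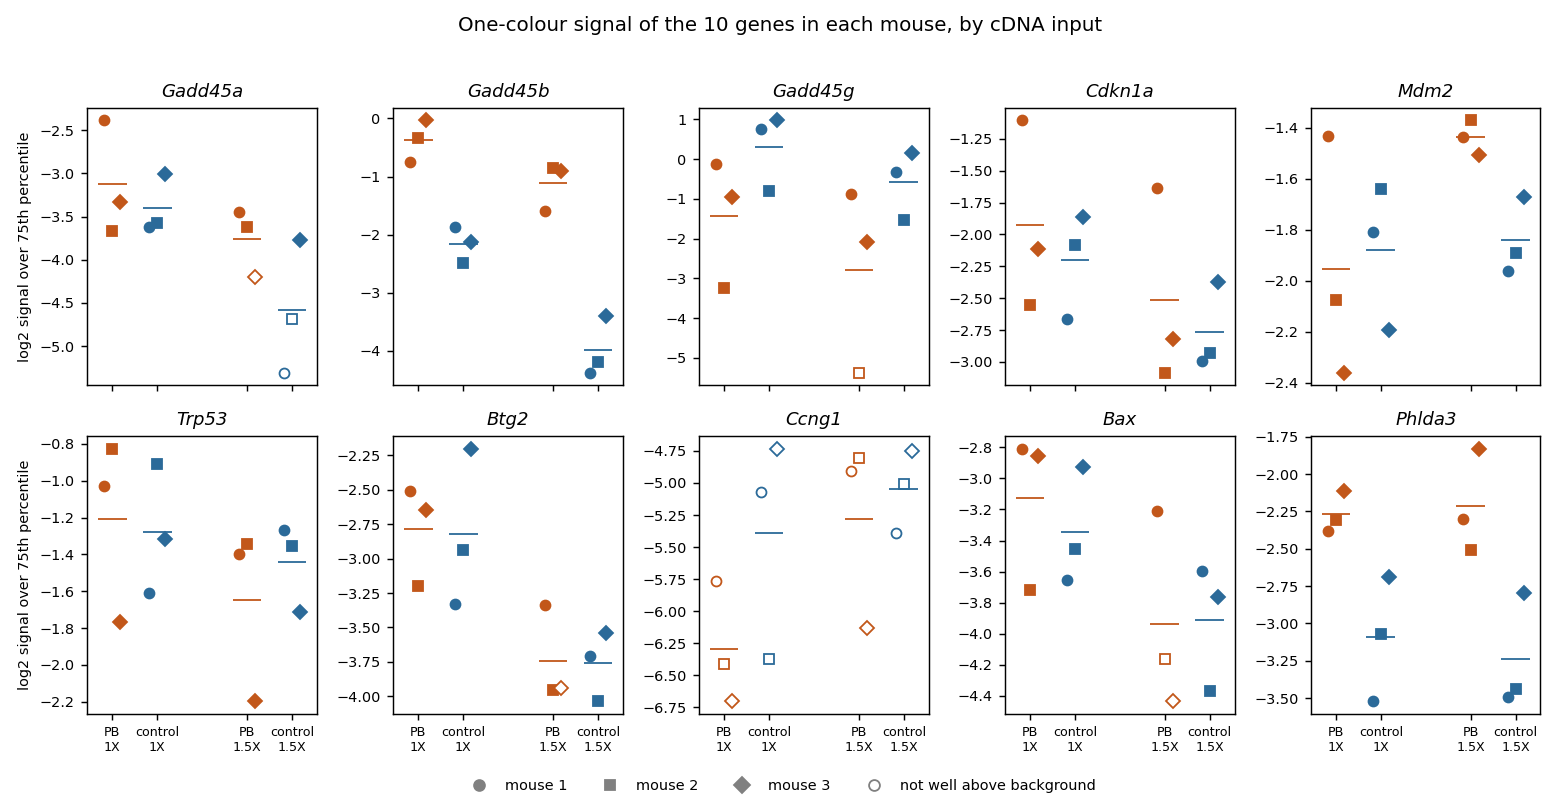
Log2 signal over the array's 75th percentile (y axis, own scale for each gene) for each mouse at 1X and 1.5X input, with phenobarbital (orange) left of control (blue). Each symbol is 1 mouse, a short line is the group mean, and open symbols were not well above background; only Gadd45b and Phlda3 have no overlap between the groups at both inputs.

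Across the 10 members, 8 were tested over both one-colour inputs and 1 passed, Gadd45b, where 0.75% of all 12796 genes tested passed. The groups did not overlap for 2 of these 8, Gadd45b and Phlda3, while 19% of all genes had no overlap. The median fold change of the 8 was 0.13, against -0.02 over all genes tested. At 1X 0 of 9 members passed (0.161% of 18630 genes), with 2 at an unadjusted p under 0.05 (8.58% of genes) and 2 without overlap, Gadd45b and Phlda3 in both counts (14% of genes had none). At 1.5X 1 of 8 passed (0.237% of 13076 genes), and Gadd45b, Phlda3 and Mdm2 had no overlap, against 20.8% of genes. In the two-colour 1X set 2 of 4 passed, Gadd45b higher and Gadd45g lower, against 6.26% of 8253 genes, and 3 of 4 had no overlap, against 32.9%. Each of the genes that passed entered this test only through the group where it was higher, so the count is given as a description. In the two-colour 1.5X set 0% of 1661 genes passed by limma, with 28 at an unadjusted p under 0.05, and 3.79% had no overlap.

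**Figure D2:**
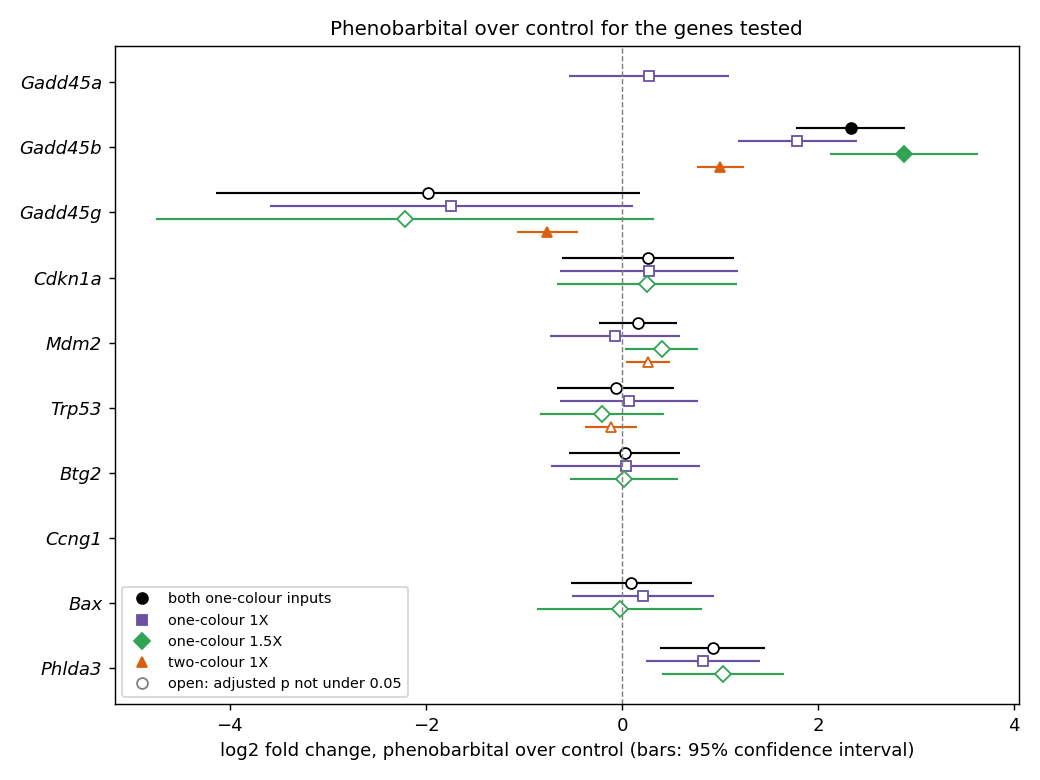
Log2 fold change, phenobarbital over control (x axis), with its 95% confidence interval for each member that could be tested in each comparison (colour and symbol). Filled symbols passed the threshold: Gadd45b over both inputs, at 1.5X and in the two-colour 1X set, and Gadd45g in the two-colour 1X set by the mouse numbers of the array descriptions.

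Gadd45g, a stress-inducible gene of the same family, varied widely between the mice of a group. At 1X it stood at -0.12, -3.23 and -0.94 in PB1, PB2 and PB3, against 0.76, -0.81 and 0.97 in C1, C2 and C3. At 1.5X it stood at -0.89, -5.37 and -2.09 in exposed mice, against -0.32, -1.53 and 0.15 in control mice. PB2 was the lowest exposed mouse and C2 the lowest control mouse at both inputs, PB2 was not well above background at 1.5X, and the groups overlapped because PB1 lay above C2.

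The exposed mice spanned 3.12 log2 units at 1X and the control mice 1.78. Over both inputs the fold change was -1.98 (SE 0.93, 95% confidence interval -4.14 to 0.18, limma adjusted p = 0.412). Without PB2 it was -0.88, and the leave-one-out values ran from -2.78 to -0.88. At 1.5X in the two-colour Cy3 channel Gadd45g stood at 7.39, 6.81 and 7.23 in exposed mice, against 7.85, 7.02 and 7.94 in control mice, again with PB2 and C2 lowest and with overlap.

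In the two-colour 1X set the call for Gadd45g depended on which labels numbered the mice. On 4 of the 6 arrays used, the array description and the source name give the Cy5 channel different mouse numbers within the same exposure group, and the Cy3 numbers do not differ. Which labels are right was not tested. If the source names are right, some values by the descriptions join the dyes of different mice. The p-values by the descriptions would then not measure the spread between mice. By the descriptions, Gadd45g averaged 7.38 ± 0.21 in exposed mice and 8.14 ± 0.20 in control mice (SD, n = 3 each), a fold change of -0.76 (SE 0.13, limma adjusted p = 0.0147). The probe was well above background in 2 of 3 exposed channels and 3 of 3 control channels of each dye. By the source names the same mean difference had an SE of 0.35 and a limma adjusted p of 0.398, with an SD of 0.62 in exposed and 0.60 in control mice. The groups did not overlap by the descriptions and overlapped by the source names. In Cy3 alone the fold change was -0.91 (SE 0.41, limma adjusted p = 0.378), where 1.34% of 10296 genes passed and 1 of 6 members, Gadd45b. Without C3 the call by the descriptions was lost (-0.77, limma adjusted p = 0.0586), and with the processed Cy3 signal alone the fold change was -1.49 (limma, adjusted p = 0.496).

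In Cy3, Gadd45g stood at 7.96, 6.35 and 7.33 in PB1, PB2 and PB3, against 8.40, 7.33 and 8.64 in C1, C2 and C3, with PB2 and C2 lowest as in the one-colour sets. In Cy5, the description puts 7.06, 7.91 and 7.64 on PB1, PB2 and PB3, against 8.29, 8.57 and 7.60 on C1, C2 and C3, so that PB1 and C3 are lowest. By the source names the Cy5 values are 7.91, 7.06 and 7.64 in exposed mice, against 8.29, 7.60 and 8.57 in control mice, with PB2 and C2 lowest. For Cdkn1a, PB1 was highest in Cy3 at 7.29, and in Cy5 the highest exposed value, 7.34, belongs to PB2 by description and to PB1 by source name. Over all genes of this set the median SD within groups was 0.110 by the descriptions and 0.146 by the source names, and the genes past the threshold were 517 (6.26%) by the descriptions and 100 (1.21%) by the source names. Joining the dyes of different mice would itself lower the SD and raise the count. Neither the SD nor the count therefore shows which labels are right. Gadd45b passed under both (limma, adjusted p = 0.00175 by the descriptions and 0.0114 by the source names).

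**Figure D3:**
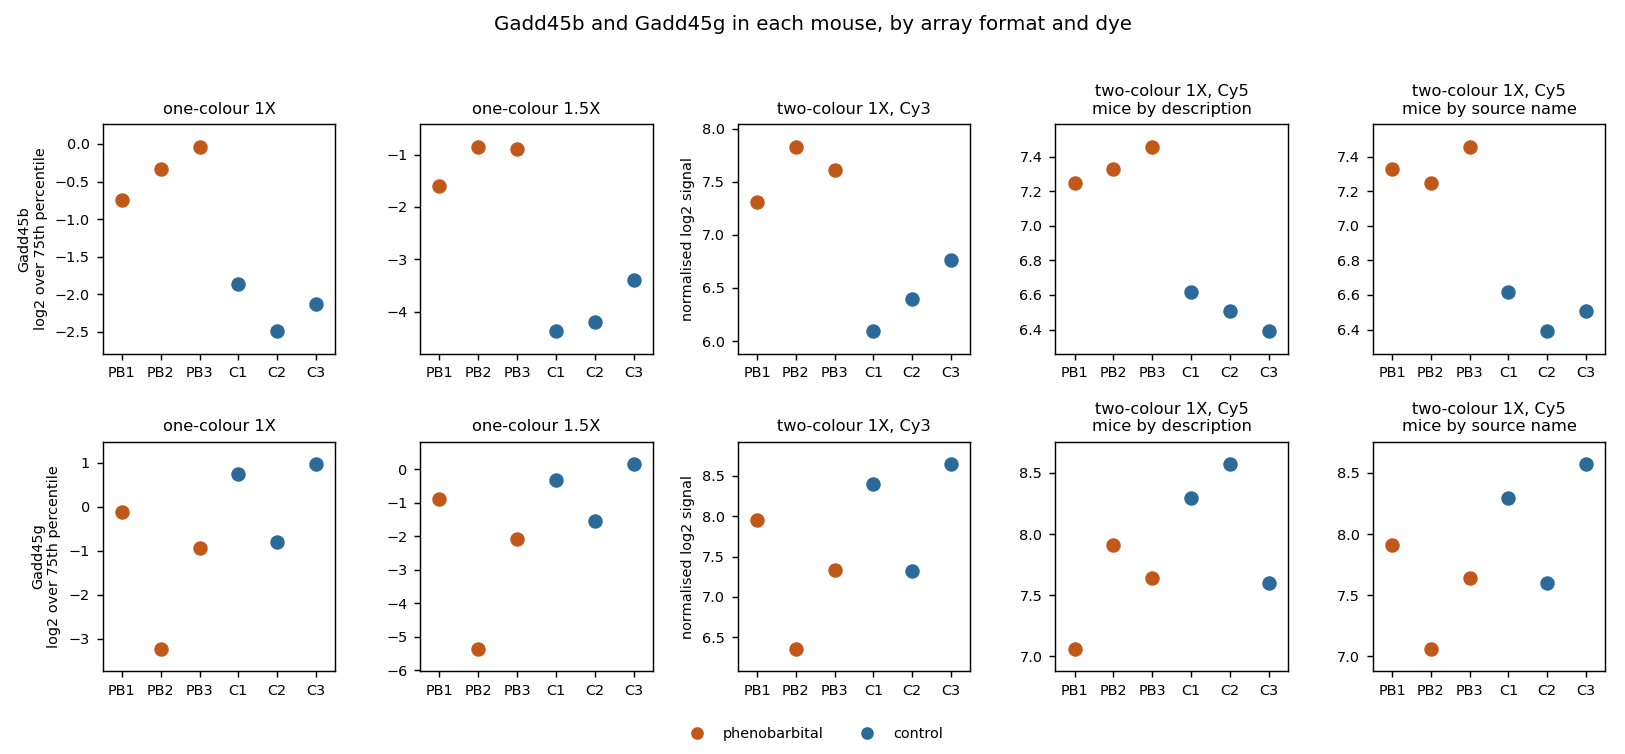
Signal of Gadd45b (top) and Gadd45g (bottom) in each mouse (x axis; phenobarbital orange, control blue) in both one-colour sets (log2 over the 75th percentile) and in each dye of the two-colour 1X set (normalised log2 signal), with the Cy5 mice numbered by description and by source name. Gadd45b separated the groups in every panel, while the lowest Gadd45g mice were PB2 and C2 in every panel but the one with the Cy5 mice numbered by description.

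Gadd45a, the family member most closely tied to p53, could be tested in 1 set, and in another only in Cy3 alone. At 1X all 6 arrays read it well above background, at -2.39, -3.67 and -3.33 in exposed mice, against -3.62, -3.58 and -3.01 in control mice. The groups overlapped, and the fold change was 0.27 (SE 0.35, limma adjusted p = 0.898). At 1.5X it was well above background in PB1, PB2 and C3, and in no other mouse, and was not tested. In the two-colour 1.5X set Cy3 read it well above background on 3 of 4 exposed and 4 of 4 control channels, and the fold change in Cy3 alone was 0.04 (limma, adjusted p = 0.903).

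Trp53 did not differ detectably between the groups. At 1X it stood at -1.03, -0.83 and -1.77 in exposed mice, against -1.61, -0.91 and -1.32 in control mice, with the groups interleaved. Over both inputs the fold change was -0.07 (SE 0.26, 95% confidence interval -0.66 to 0.53, limma adjusted p = 0.938). In the two-colour 1X set it was -0.11 (SE 0.12, 95% confidence interval -0.38 to 0.15, limma adjusted p = 0.583). PB3 was the lowest of the 6 mice at both one-colour inputs and in that set.

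Mdm2, the ubiquitin ligase that marks p53 for breakdown and is itself a p53 target, had separated groups in 2 sets and passed the test in none. At 1.5X it stood at -1.44, -1.37 and -1.51 in exposed mice, against -1.96, -1.89 and -1.67 in control mice, with no overlap. The fold change there was 0.40 (SE 0.16, limma adjusted p = 0.311), and in the two-colour 1X set, also without overlap, 0.27 (SE 0.10, limma adjusted p = 0.144). At 1X the exposed mice stood at -1.43, -2.07 and -2.36 and the control mice at -1.81, -1.64 and -2.19, which overlap, and the fold change was -0.07 (SE 0.29, limma adjusted p = 0.975). In the two-colour 1.5X set Cy3 read Mdm2 well above background on 4 of 4 exposed and 4 of 4 control channels. The fold change in Cy3 alone was -0.15 (SE 0.10, limma adjusted p = 0.762), and the groups overlapped.

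Cdkn1a encodes p21, the cyclin-dependent kinase inhibitor through which p53 halts the cell cycle. RefSeq gives it 2 start sites, and the upstream window, chr17:29090729-29091028 on the plus strand of GRCm38.p6, is shown because it holds the letters of the p53 half-site, in capitals. The half-site was searched by its consensus on both strands with no mismatch, and this window too was chosen after the letters and values had been read.
Cdkn1a: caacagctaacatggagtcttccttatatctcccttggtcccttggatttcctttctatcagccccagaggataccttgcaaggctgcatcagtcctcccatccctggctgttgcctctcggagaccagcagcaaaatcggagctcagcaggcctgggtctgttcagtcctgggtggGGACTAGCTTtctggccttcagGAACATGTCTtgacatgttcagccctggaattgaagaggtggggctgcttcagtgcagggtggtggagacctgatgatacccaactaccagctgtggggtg
The half-site occurred in 8.36% of all windows and in those of 6 members, Gadd45a, Cdkn1a, Mdm2, Trp53, Ccng1 and Bax. No member window held a pair of half-sites with no mismatch and no bases between them, which 0.00913% of all windows did. The marked half-sites of the Cdkn1a window, at -73 and -51 from the start site, have bases between them. Pairs with a mismatch or with bases between the half-sites were not searched for. The search therefore cannot show whether these windows hold a whole p53 site. The nuclear receptor half-site AGGTCA was in the Btg2 window (16.3% of all windows) and AGTTCA in those of Trp53 and Bax (14% of all windows). The cAMP response element TGACGTCA was in the Btg2 window (1.79% of all windows) and the NF-kappa-B consensus, searched without mismatch on both strands, in the Trp53 window (0.155% of all windows), where it overlapped a CCAAT box.

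The main Cdkn1a probe was printed 10 times on each array, which gives the spread between spots of an array beside that between mice. At 1X it stood at -1.11, -2.55 and -2.11 in PB1, PB2 and PB3, against -2.67, -2.08 and -1.86 in C1, C2 and C3. At 1.5X it stood at -1.64, -3.08 and -2.82 in exposed mice, against -2.99, -2.93 and -2.37 in control mice. PB1 was the highest mouse at both inputs, and the other exposed mice lay within or below the range of the control mice. The SD between replicate spots of an array had a median of 0.10 at 1X and 0.11 at 1.5X, while the SD between the 3 exposed mice was 0.74 and 0.77. Each mouse had its own array at each input, so the spread between mice also holds differences in labelling and hybridisation. The fold change over both inputs was 0.27 (SE 0.37, limma adjusted p = 0.803), and -0.16 without PB1.

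**Figure D4:**
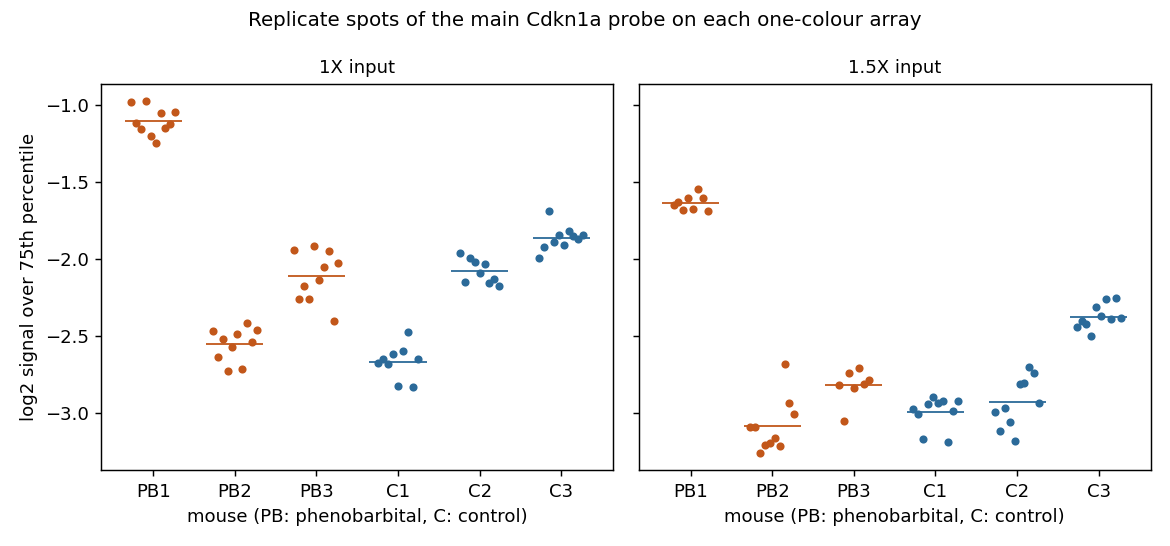
Log2 signal over the array's 75th percentile (y axis) of each replicate spot of the main Cdkn1a probe kept after outlier flags, by mouse (x axis; phenobarbital orange, control blue) at each input. Lines are the means of an array; the array mean of PB1 stands above that of every other mouse at both inputs.

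The other Cdkn1a probe had a narrower range between mice. At 1X it stood at -2.29, -2.93 and -2.99 in exposed mice, against -2.46, -2.67 and -2.69 in control mice, well above background on all 6 arrays. At 1.5X it was not well above background on any one-colour array. Its groups overlapped at 1X, with PB1 highest, and the spans of the exposed mice were 0.71 for this probe and 1.45 for the main one.

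Btg2 restrains proliferation, and Bax opens the mitochondrial outer membrane in apoptosis. Btg2 at 1X stood at -2.51, -3.20 and -2.65 in exposed mice, against -3.33, -2.94 and -2.20 in control mice, and its fold change over both inputs was 0.03 (SE 0.24, 95% confidence interval -0.54 to 0.59, limma adjusted p = 0.974). Bax at 1X stood at -2.81, -3.72 and -2.86 in exposed mice, against -3.65, -3.45 and -2.93 in control mice, and its fold change over both inputs was 0.10 (SE 0.27, 95% confidence interval -0.52 to 0.72, limma adjusted p = 0.910). Both overlapped between the groups. At 1.5X Btg2 was well above background in 2 of 3 exposed and 3 of 3 control mice, and Bax in 1 of 3 exposed and 3 of 3 control mice.

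Ccng1, the gene of cyclin G1 and a p53 target, had only values below detection. Its single probe was not well above background on any assigned array, in either dye, and its one-colour values ranged from -6.70 to -4.80 in exposed mice and from -6.38 to -4.73 in control mice. No fold change is given for it.

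Phlda3, a p53 target whose protein competes with the kinase Akt for membrane lipids, was the other member with separated groups at both inputs. At 1X it stood at -2.38, -2.30 and -2.12 in exposed mice, against -3.52, -3.07 and -2.69 in control mice. At 1.5X it stood at -2.30, -2.51 and -1.83 in exposed mice, against -3.49, -3.44 and -2.80 in control mice. Every exposed mouse was above every control mouse on both slides, C3 was the highest control mouse on both, and all 12 arrays were well above background.

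Over both inputs the Phlda3 fold change was 0.93 (SE 0.23, 95% confidence interval 0.39 to 1.46, limma adjusted p = 0.145). With each array as an observation, the slide as a term and the mouse as a random block, it was 0.93 with a limma adjusted p of 0.0244, a fit under which 3.1% of genes passed, 2 of 8 members among them. The set at 1X gave 0.83 (limma, adjusted p = 0.399) and the set at 1.5X gave 1.03 (limma, adjusted p = 0.177). Phlda3 was not tested in the two-colour 1X set, where neither group was well above background in every channel. On the mean of both dyes by the descriptions it stood at 6.81, 6.86 and 7.14 in exposed mice, against 6.59, 6.64 and 6.62 in control mice. By the source names the lowest exposed mouse, PB2, and the highest control mouse, C3, both stood at 6.78. In Cy5 alone the groups overlapped, at 6.64, 6.80 and 7.05 in exposed mice, against 6.56, 6.92 and 6.61 in control mice by the descriptions. In Cy3 alone its fold change was 0.50 at 1X (SE 0.14, limma adjusted p = 0.129) and 0.21 at 1.5X (SE 0.09, limma adjusted p = 0.655), with no overlap in either.

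In the lists of p53 regulators and of further p53 targets, 0 of the genes tested passed over both inputs, where 0.75% of all genes passed, and 0 among so few genes is near that share. Of 14 p53 regulators, 5 could be tested and 0 passed, and the largest differences were -0.19 for Wrap53 (limma, adjusted p = 0.597) and -0.14 for Trp53bp1 (limma, adjusted p = 0.759). Of 18 further p53 targets in arrest and repair, 9 were tested and 0 passed, with a median of -0.28. The largest differences there were -1.43 for the kinase gene Plk3 (SE 0.45, limma adjusted p = 0.231) and -0.76 for the excision repair nuclease gene Ercc5 (SE 0.23, limma adjusted p = 0.225), and 7 of the 9 values were below 0. Of 12 further targets in apoptosis, 5 were tested and 0 passed, led by Bbc3, which encodes Puma, at -0.58 (limma, adjusted p = 0.449) and Ei24 at -0.33 (limma, adjusted p = 0.578).

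Among 10 BCL2 family partners of Bax, 6 were tested and 0 passed, led by Bok at -1.01 (SE 0.32, limma adjusted p = 0.235) and the survival gene Mcl1 at -0.34 (limma, adjusted p = 0.329). Among 14 cyclin-dependent kinase inhibitors and antiproliferative genes, 8 were tested and 0 passed. Cdkn2c, the gene of the inhibitor p18, led at 1.03 (SE 0.26, limma adjusted p = 0.153), followed by Btg3, a relative of Btg2, at 0.75 (SE 0.20, limma adjusted p = 0.170). Of 14 genes listed as kinase partners of Gadd45 and stress kinases, 10 were tested and 0 passed. Ddit4, a stress gene of that list that encodes no kinase, led at 0.85 (limma, adjusted p = 0.424). Mapk9, which encodes a JNK, followed at -0.52 (limma, adjusted p = 0.507). Phlda1, the only relative of Phlda3 tested, was at -1.48 (SE 0.49, limma adjusted p = 0.257). The medians of these lists ran from -0.28 to -0.03 for those with more than 1 gene tested, against -0.02 over all genes. In the two-colour 1X set by the descriptions, Cdkn2c was higher at 0.47 (limma, adjusted p = 0.0145) and Plk3 lower at -0.51 (limma, adjusted p = 0.0275). Both were named after their values were seen, and by the source names neither passed (limma, adjusted p = 0.0904 for Cdkn2c and 0.123 for Plk3).

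The genes whose one-colour pattern was most like that of Gadd45b were found over the 12 one-colour arrays, as the root mean square difference from it after centring each set. They were Blm at 0.38 log2 units, Por at 0.42, Fndc5 at 0.44, Gstt3 at 0.45 and Cyp2c39 at 0.48, against a median of 1.29 over all genes with a symbol that were tested. Their differences, exposed minus control over both inputs, were 2.78 for Blm, 2.39 for Por, 2.50 for Fndc5, 2.65 for Gstt3 and 1.68 for Cyp2c39 on the log2 scale, and follow from the choice of genes like Gadd45b on the same arrays. The likeness is a description over 12 arrays of 6 mice that share the exposure contrast.

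These are whole livers, so fewer cells of a type and less RNA per cell cannot be told apart. Markers of other cells were measured beside the members. No gene of the lists for Kupffer cells and macrophages (3 tested), neutrophils (2), T, B and NK cells (1), endothelium (4), stellate cells and fibroblasts (5), cholangiocytes (2), pancreas (7) or red cells (2) passed over both inputs. The summed Kupffer cell and macrophage signal, in multiples of the 75th percentile, was 4.77 to 6.35 in exposed and 4.35 to 5.07 in control mice at 1X, and Cd14 and Timd4 were not well above background on any one-colour array. The summed stellate cell and fibroblast signal was 28.1 to 36.4 in exposed and 24.0 to 30.4 in control mice at 1X. The summed pancreas signal was 70.9 to 395 in exposed and 117 to 444 in control mice at 1X. All 7 pancreas genes had a fold change below 0 over both inputs, with a median of -0.94. Of the 2 neutrophil genes tested over both inputs, S100a9 was at 2.08 (limma, adjusted p = 0.232) and the other was at 0.04. S100a8 and Mpo were not well above background on any one-colour array. The part of these cells in the Gadd45b and Phlda3 values was not tested.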

How the data were processed

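Per the file headers, the arrays were Agilent mouse arrays whose design names build mm9, and the software was Feature Extraction 11.0.1.1 of Agilent. The deposited files hold spot intensity per channel (median, background and processed signal), the LogRatio, a log10 ratio of red over green, and flags with no unit that mark spots well above background or as outliers, per the file headers. The deposited value table equals the processed intensity on one-colour arrays and the log10 ratio, with its sign turned on some arrays, on two-colour ones. Which aligner or annotation release lay behind the probe names is not given in the sources used here.

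From these, control and outlier spots were left out and replicate spots averaged. For one-colour arrays, the 75th percentile of the probes detected on every one of the 6 arrays of a set was subtracted from the log2 processed signal. Two-colour values are median signals after normexp (offset 50), loess (span 0.3) and Aquantile, and both dyes of a mouse were averaged. A probe counted as well above background on an array when more than 50% of its spots did, and 1 probe stood for a gene, that with the highest mean one-colour signal. A gene was tested when detected in this sense on each array of 1 group or both, with limma 3.58.1 in R 4.3.3 and Benjamini-Hochberg adjustment over all genes tested, at a threshold of 0.05. The number of arrays limits the precision. Of the two-colour 1X arrays, 6 of 8 were used, since on the others the labels give the exposures opposite dyes. Mice there were numbered by the array descriptions.

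The members, the lists and the tests were chosen with earlier results of these data known. Named were all members, the 2 tested genes of each pathway list with the largest absolute fold change and any past the threshold over both inputs, the exposure and tissue checks, and the 5 genes most like a member past the threshold. The fits were tested on simulated data. Alternatives were the filter, the probe rule, the normalization, the deposited value table, the mouse number as a block, a random block, single dyes, the source names and each mouse left out; the processed Cy3 signal alone was chosen after seeing the data.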

Additional observations from a re-analysis of the deposited data

How the results depend on the processing

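Over both inputs 1 member passed under every alternative in which no mouse was left out (28 to 145 of all genes), with 1 exception. With each array as an observation, slide as a term and mouse as a random block, 2 passed (397 genes). Leaving out 1 mouse gave 0 to 1 (16 to 106 genes). At 1X 0 members passed (30 genes in the main fit), except 1 (Gadd45b) with normexp and quantile normalization (30 genes). At 1.5X 1 member passed (31 genes in the main fit), but 0 without the filter on dim probes (7 genes, Gadd45b adjusted p = 0.0862 by limma). Without 1 mouse 0 to 1 passed there (11 to 139 genes). In the two-colour 1X set 2 members passed (517 of 8253 genes), but 1 with Cy3 alone (138 of 10296 genes) and 1 by the source names (100 of 8253). With the processed Cy3 signal alone 0 passed (15 of 10296 genes), and without 1 mouse 1 to 2 (214 to 628 of 8253). The same mouse numbers in both groups gave correlations of deviations of 0.05, -0.12 and 0.28, so they were not treated as pairs. With the mouse number as a replicate block, 1 member passed over both inputs, 0 at 1X, 0 at 1.5X (Gadd45b 2.87, limma adjusted p = 0.0675) and 2 in the two-colour 1X set, and all genes past the threshold were 37 against 96 over both inputs, 3 against 30 at 1X, 4 against 31 at 1.5X and 688 against 517 in the two-colour 1X set.

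Under the alternatives 40 values of single members turned direction, none of them past the threshold, while 304 kept both direction and call. The deposited value table, unscaled, moved the median of all genes to -0.23 over both inputs, -0.28 at 1X and -0.16 at 1.5X, against -0.02, 0.01 and -0.02 with scaling, and the members moved down with it. The values that turned direction there were Mdm2 at -0.05, Btg2 at -0.19 and Bax at -0.12 over both inputs, Gadd45a at -0.02, Cdkn1a at -0.01, Trp53 at -0.22, Btg2 at -0.26 and Bax at -0.08 at 1X, and Btg2 at -0.12 at 1.5X. With normexp and quantile normalization Mdm2 was at 0.03 and Btg2 at -0.01 at 1X, and with the percentile over all probes Bax was at 0.00 at 1.5X. Leaving out 1 mouse gave, over both inputs, -0.16 to 0.57 for Cdkn1a, -0.24 to 0.21 for Trp53, -0.14 to 0.24 for Btg2 and -0.17 to 0.30 for Bax. At 1X it gave -0.10 to 0.54 for Gadd45a, -0.13 to 0.59 for Cdkn1a, -0.34 to 0.13 for Mdm2, -0.12 to 0.35 for Trp53 and -0.22 to 0.35 for Btg2. At 1.5X it gave -0.19 to 0.54 for Cdkn1a, -0.35 to 0.07 for Trp53, -0.19 to 0.13 for Btg2 and -0.39 to 0.22 for Bax, and in the two-colour 1X set -0.19 to 0.01 for Trp53. The cause of the turns outside the unscaled table was not tested. Genes past the threshold over both inputs were 86 higher and 10 lower, against 45 and 17 with the unscaled table. At 1.5X they were 30 higher and 1 lower, against 128 and 32 with normexp and quantile normalization, and in the two-colour 1X set 277 and 240, against 202 and 282 with the processed signals of both dyes. All genes past the threshold ran from 16 to 397 over both inputs, from 3 to 30 at 1X, from 4 to 160 at 1.5X and from 15 to 688 in the two-colour 1X set. Signal over background limited Gadd45a, Btg2 and Bax at 1.5X, Ccng1 everywhere and all members in Cy5 of the two-colour 1.5X set. In the two-colour 1X set the filter on dim probes left Gadd45a, Cdkn1a, Btg2, Ccng1, Bax and Phlda3 untested.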

Other observations

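On the 2 arrays of the two-colour 1X set whose labels give the exposures opposite dyes, the direction of exposure is not known, and the log2 ratio of Cy5 over Cy3 is given without one. Gadd45b had 2.76 on array 4 and -2.00 on array 8. Gadd45g had -3.28 on array 4 and 1.00 on array 8. Phlda3 had -0.39 on array 4 and -0.66 on array 8, and Trp53 had -0.17 on array 4 and 0.09 on array 8.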
